A study of Mus musculus with 16 samples.

Results

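The 7 solute carrier families Slc1, Slc3, Slc6, Slc7, Slc36, Slc38 and Slc43 hold the membrane proteins that move amino acids and amino-acid-like osmolytes such as glycine, taurine and betaine. Their transcripts were taken as every row of the expression table whose gene name consists of 1 of these family names, the letter a and a number. This gave 51 rows for 50 gene names out of 28618 rows for 27987 names, because Slc1a1 has 2 rows. The rule used names only and no measured value. RNA was sequenced from mouse oocytes at the germinal vesicle (GV) stage (held in prophase of meiosis), and from ovulated eggs labelled MII, the stage that follows maturation. Each stage was collected from wildtype (WT) females and from Zp3-Cre; Psma7 flox/flox females (Psma7 cKO), giving 4 groups of 4 biological replicates. Females were C57BL/6 and 3 to 4 weeks old, and all received 5 IU PMSG, the hormone that makes follicles grow. GV oocytes were taken 44 h later, whereas MII eggs were flushed from oviducts 14 to 16 h after a further hCG injection and freed of cumulus cells with 0.3% hyaluronidase. The labels give 5 oocytes per library, whereas the paper's methods give another pool size. Zp3-Cre is active in growing oocytes, so Psma7, the gene of a 20S proteasome α subunit, is deleted in oocytes while follicle cells keep it. The Cre transgene was carried by all Psma7 cKO libraries and by no WT library, and the labels do not say whether eggs were selected by their polar body. The paper reports that some ovulated Psma7 cKO oocytes stayed at GV, released no polar body or were arrested while releasing it. Psma7 cKO egg libraries may therefore hold cells that had not reached MII, which was not tested.

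An oocyte imports amino acids for the proteins it stores and for energy, and it also uses some of them to hold its volume. Glycine enters mouse eggs and early embryos through the sodium- and chloride-driven transporter GLYT1, encoded by Slc6a9, and serves as an organic osmolyte after the follicle's hold on the oocyte is released. Many other amino acids cross as exchanges through heterodimers, in which a glycoprotein heavy chain of the Slc3 family brings a light chain of the Slc7 family to the cell surface. A fully grown oocyte does not transcribe, so its maternal transcripts are kept, or lose their poly(A) tails and decay, between GV and MII.

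Psma7 FPKM (fragments scaled to transcript length and to the mapped total) was 142 to 201 in the 4 WT GV libraries and 11.1 to 18.0 in the Psma7 cKO GV libraries. In eggs it was 97.7 to 172 in WT and 13.6, 50.3, 35.0 and 59.9 in Psma7 cKO replicates 1 to 4, so the genotypes did not overlap at either stage. The estimated depth of 10.54 to 15.67 M fragments per library gives 21 to 31 fragments for a transcript of 2 kb at 1 FPKM. All 11 oocyte markers looked for passed the filter on low values. Of 15 cumulus and granulosa markers in the table, 13 stayed under 1 FPKM in every library, with the highest value at 0.862 FPKM for Fshr. The other 2, Nr5a2 and Cyp19a1, made up most of the summed level, which was 11.8 to 14.8 FPKM in WT GV, 14.0 to 16.6 in Psma7 cKO GV, 15.4 to 17.7 in WT MII and 15.9 to 17.6 in Psma7 cKO MII libraries. FPKM is a share of a library, so less RNA of one transcript per cell and more RNA of all the others cannot be told apart, nor can fewer contributing cells.

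The 3′ ends of the transcripts are shown because the stored RNA of an oocyte is read out through its tail. A poly(A) signal (AATAAA or ATTAAA) sets where the tail is added, and a cytoplasmic polyadenylation element (TTTTAT or TTTTAAT) near it is a known mark of transcripts whose tails are lengthened during maturation. Sequences are those of 1 coding transcript per gene in GENCODE release M21 (GRCm38, the same assembly as mm10), on the transcript's own strand, with poly(A) signals and polyadenylation elements in capitals. The elements were looked for in the 100 bases before the signal, and a match could overlap the signal. Among the transcripts that rose in WT maturation (values further on), an element was found in Slc43a3 (chr2:84958468-84958497, plus strand), where it starts 11 bases before the signal. It was also found in Slc7a8 (chr14:54722241-54722270, minus strand, 26 bases before) and Slc6a15 (chr10:103419276-103419305, plus strand, 68 bases before).
Slc43a3: gaatacTTTTATacaatAATAAAgcctcta
Slc7a8, element: tttattggtttgTTTTATggagtattttct
Slc6a15, element: tgttttgcttcaTTTTATgcaaatacaaat
The signals of Slc7a8 (chr14:54722215-54722244) and Slc6a15 (chr10:103419344-103419373) read as follows, together with those of Slc7a11 (chr3:50364941-50364970, minus strand) and Slc6a6 (chr6:91759025-91759054, plus strand), which rose as well and had no element in that window.
Slc7a8, signal: ttcttttcatgtAATAAAattttaaatgga
Slc6a15, signal: ttttaacctacaAATAAAcgaagtttaaag
Slc7a11: tttcttttctatAATAAAtactgctttaag
Slc6a6: ttgtaacacaacAATAAAcatttccttttt
Among the transcripts that fell, a signal but no element was found in Slc6a4 (chr11:77032310-77032339, plus strand), Slc38a7 (chr8:95835926-95835955, minus strand), Slc38a8 (chr8:119479609-119479638, minus strand) and Slc38a9 (chr13:112738714-112738743, plus strand).
Slc6a4: aatttttcttacATTAAAcagattctacct
Slc38a7: gtgaggatgattAATAAAgggacttacact
Slc38a8: aggagctacaatAATAAAatgagcctcgtt
Slc38a9: tgaagtaaatgtAATAAAtgctttttcttt
Neither signal was found in the last 50 bases of the transcripts chosen for Slc3a2, Slc7a2, Slc7a9 and Slc6a9. Of 18525 genes with a 3′ end of at least 150 untranslated bases, 75.7% held a signal in those 50 bases, and 18.9% of these held an element before it. A match is a description of the letters and not a measured site, and the absence of one says only that these letters are not in the window.

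Transcripts of 11 of the 51 rows were at 1 FPKM or more in all 16 libraries (21.6%, compared with 27.7% of all rows). These were Slc6a15, Slc43a3, Slc3a2, Slc7a11, Slc7a2, Slc6a9, Slc6a6, Slc38a7, Slc38a9, Slc7a8 and Slc7a1. A further 9 reached 1 FPKM in some libraries only, namely Slc6a4, Slc7a9, Slc38a8, Slc7a5, Slc38a1, Slc1a1 (its higher entry), Slc6a12, Slc6a7 and Slc7a7. The other 31 rows were under 1 FPKM in every library, and 15 of them were under 0.1 FPKM throughout. Those between 0.1 and 1 FPKM at their highest were Slc36a1, Slc38a11, Slc7a6, Slc38a10, Slc6a16, Slc43a1, Slc1a4, Slc43a2, Slc6a14, Slc1a5, Slc38a6, Slc38a5, Slc7a3, Slc6a13, Slc38a2 and Slc7a4. The lowest 15 were Slc7a15, Slc1a3, Slc6a3, Slc38a4, Slc6a5, Slc6a8, Slc3a1, Slc36a4, Slc7a14, Slc6a11, Slc6a18, Slc1a2, Slc6a2, Slc1a7 and the lower entry of Slc1a1, though none of the 51 was listed at 0 in all 16 libraries. Slc38a2 and Slc1a5, which encode the widely used glutamine carriers SNAT2 and ASCT2, thus reached at most 0.206 and 0.835 FPKM.

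**Figure D1:**
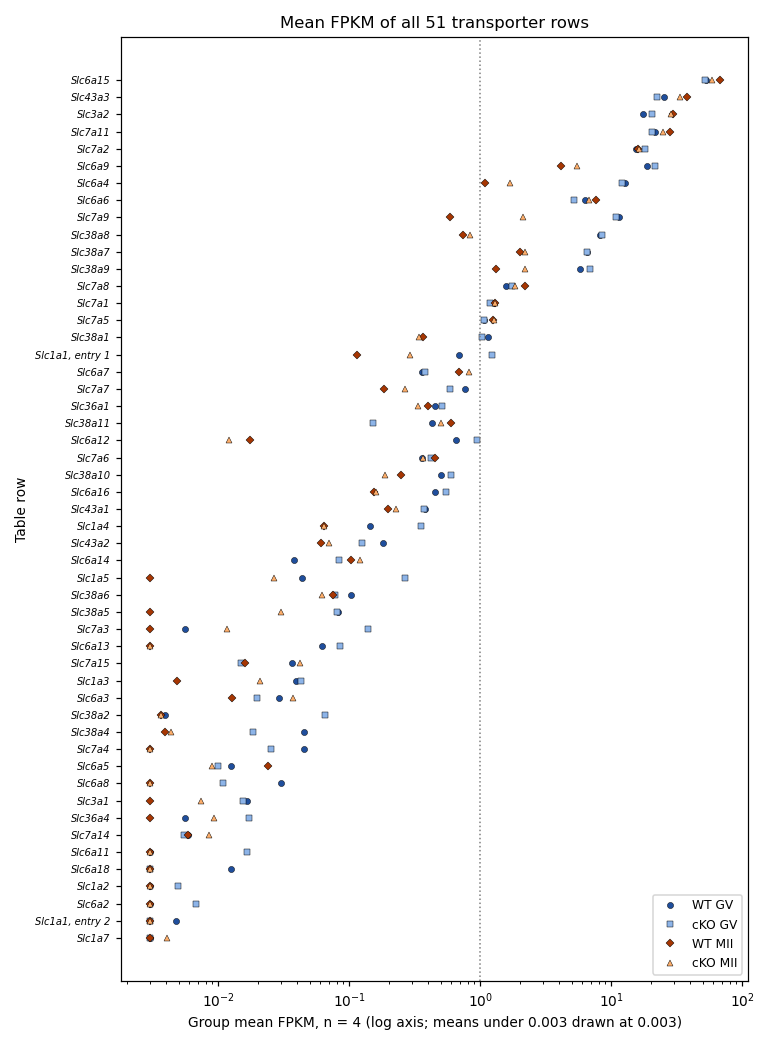
Mean FPKM (log axis, n = 4 libraries per point) of all 51 transporter rows in WT GV (dark blue circles), Psma7 cKO GV (light blue squares), WT MII (dark orange diamonds) and Psma7 cKO MII libraries (light orange triangles), ordered by the mean over 16 libraries. The dotted line marks 1 FPKM, which 17 rows reached as a group mean, and Slc6a15 stands at the top with a mean of 57.6 FPKM.

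Per length, Slc6a15 was the most abundant transporter transcript (57.6 FPKM over the 16 libraries), followed by Slc43a3 (29.8 FPKM), Slc3a2 (23.9 FPKM), Slc7a11 (23.7 FPKM), Slc7a2 (16.4 FPKM) and Slc6a9 (12.5 FPKM). The order of Slc3a2 and Slc7a11 depended on the group, since WT GV libraries held 15.5 to 18.9 FPKM of Slc3a2 and 19.8 to 23.9 FPKM of Slc7a11, while their ranges overlapped in WT eggs (27.4 to 30.4 and 27.2 to 30.2 FPKM). The 51 rows together held 213 ± 8.58 FPKM in WT GV, 217 ± 10.5 in Psma7 cKO GV, 204 ± 7.88 in WT MII and 192 ± 8.48 in Psma7 cKO MII libraries (mean ± SD, n = 4 each). This was 0.0439 to 0.0583% of a library's summed FPKM. Family sums went in opposite directions in WT maturation. The sum over the 10 Slc38 rows was 22.8 ± 2.63 FPKM in WT GV oocytes and 5.33 ± 0.336 in WT eggs (n = 4 each). The sum over the 3 Slc43 rows went the other way, with 26.0 ± 1.47 and 38.3 ± 2.18 FPKM, and neither pair of groups overlapped. Slc43a3 alone carried this rise, since Slc43a1 and Slc43a2, both under 1 FPKM in every library, had lower means in WT eggs.

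**Figure D2:**
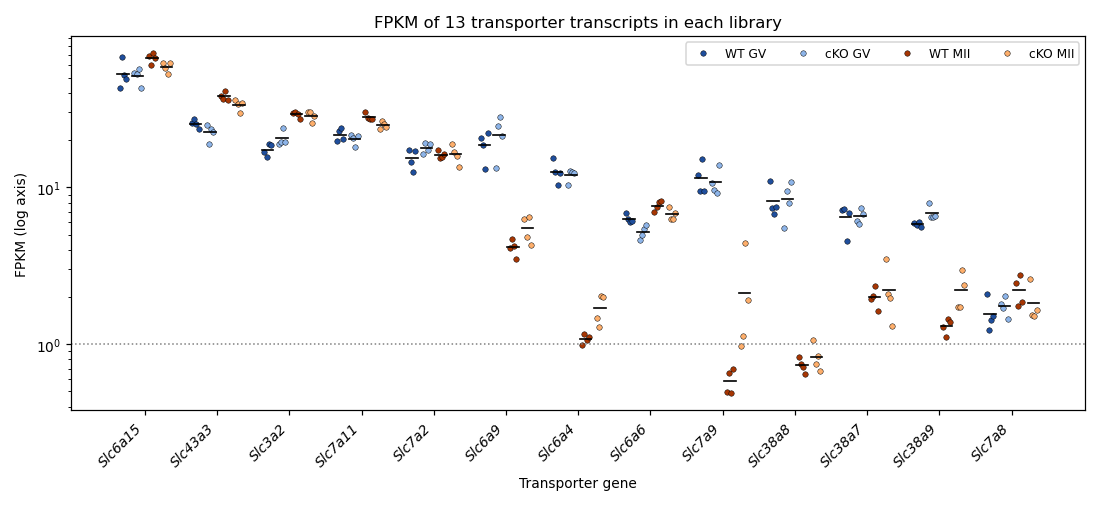
FPKM (log axis) of the 13 transporter transcripts described in detail, with 1 point per library and a black bar at each group's mean (n = 4). Slc6a4, Slc7a9, Slc38a8, Slc38a7, Slc38a9 and Slc6a9 lie lower in both MII groups than in both GV groups, and the dotted line at 1 FPKM is the floor used for fold changes.

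Maturation in WT was compared to ask which transporter transcripts an egg keeps. From GV to MII, 6 of the 15 transporters tested rose, and 6 others fell by larger factors. The serotonin, glycine and cystine-related carriers Slc6a4, Slc6a9 and Slc7a9 and the sodium-coupled neutral carriers Slc38a7, Slc38a8 and Slc38a9 fell, while Slc3a2, Slc43a3, Slc7a8, Slc7a11, Slc6a15 and Slc6a6 rose. Over all 10475 rows tested, 26.1% rose and 52.4% fell. The median log2 fold change was 0.07 over the 15 transporters and -0.44 over all rows, and 9 of the 15 transporters were above 0 compared with 36.5% of all rows. With median-ratio rescaling of the libraries these medians moved to 0.29 and -0.23. The fits were made with limma on log2 FPKM with values under 1 set to 1, for rows with a mean of at least 1 FPKM, and a row counted as changed at a Benjamini-Hochberg adjusted p under 0.05. Slc7a9 and Slc38a8 passed the filter only through the GV libraries, so they had to differ. The remaining 36 rows were not tested.

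The osmolyte carriers Slc6a9 and Slc6a6 changed in opposite directions. Slc6a9 (chromosome 4, 117834506 to 117875198, plus strand) measured 20.7, 18.6, 13.1 and 22.3 FPKM in WT GV replicates 1 to 4. The WT eggs held 4.12, 4.70, 4.22 and 3.51 FPKM of it, well below every GV library. The group mean was 4.51-fold lower in eggs, with a log2 fold change of -2.15 (standard error 0.17, limma adjusted p = 6.04e-07). In Psma7 cKO, Slc6a9 was at 13.3, 24.5, 27.9 and 21.2 FPKM in GV oocytes and at 6.33, 4.82, 6.48 and 4.29 FPKM in eggs, again without overlap (log2 fold change -1.96, limma adjusted p = 7.1e-05). The GLYT1 transcript was thus high in GV oocytes and low in eggs of both genotypes. In the annotation, exons of Slc6a9 share 46 bases with B4galt2 (10.2 FPKM on average) and 1429 bases with Ccdc24 (0.182 FPKM), both on the opposite strand, and the libraries do not mark strand.

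Slc6a6 (chromosome 6, 91684053 to 91759066, plus strand) encodes the taurine transporter. Its WT values were 6.83, 6.30, 6.05 and 6.14 FPKM in GV oocytes and 6.92, 7.49, 8.01 and 8.13 FPKM in eggs. The highest GV library stayed just under the lowest egg library, and the log2 fold change was 0.27 (standard error 0.10, limma adjusted p = 0.0348). That call was lost with a replicate block (adjusted p = 0.106) and without any one of WT GV replicates 2 and 4 or WT MII replicates 2, 3 and 4 (adjusted p from 0.0618 to 0.0845). In Psma7 cKO it went from 4.65, 4.95, 5.45 and 5.77 FPKM to 7.49, 6.30, 6.30 and 6.88 FPKM (log2 fold change 0.38, adjusted p = 0.0177), a call also lost with a replicate block (adjusted p = 0.0555). Slc6a12, the betaine and GABA carrier BGT1, was too low to be tested and is given after its values were seen. It averaged 0.649 and 0.948 FPKM in WT and Psma7 cKO GV oocytes, and its egg means were under 0.02 FPKM.

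The heavy chain Slc3a2 (CD98, chromosome 19, 8706882 to 8723369, minus strand) rose in both genotypes, and in WT it had the largest increase among the transporters tested. WT GV libraries held 16.8, 15.5, 18.9 and 18.6 FPKM, whereas WT eggs held 29.9, 30.4, 29.4 and 27.4 FPKM. The groups were far apart, with a log2 fold change of 0.75 (standard error 0.09, limma adjusted p = 2.01e-05). In Psma7 cKO the values were 19.0, 19.5, 23.8 and 19.5 FPKM before and 30.4, 30, 25.7 and 28.5 FPKM after maturation (log2 fold change 0.49, adjusted p = 0.00217).

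Among the light chains that pair with CD98, Slc7a11 (xCT, the cystine and glutamate exchanger, chromosome 3, 49892526 to 50443614, minus strand) was the main transcript. It measured 19.8, 22.7, 23.9 and 20.3 FPKM in WT GV oocytes and 30.2, 27.5, 27.2 and 27.3 FPKM in WT eggs. Every egg library exceeded every GV library (log2 fold change 0.38, standard error 0.09, limma adjusted p = 0.00287). The Psma7 cKO values were 21.5, 20.7, 18.0 and 21.2 FPKM in GV oocytes and 23.5, 26.4, 25.3 and 24.1 FPKM in eggs (log2 fold change 0.29, adjusted p = 0.0182), a call lost with a replicate block (adjusted p = 0.0638) and without cKO MII replicate 2 (adjusted p = 0.0577). Slc7a11 made up 85.1, 84.1, 87.3 and 86.9% of the light chain FPKM (Slc7a5, Slc7a6, Slc7a7, Slc7a8 and Slc7a11) in WT GV, Psma7 cKO GV, WT MII and Psma7 cKO MII libraries.

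Slc7a8 (LAT2, an exchanger of neutral amino acids, chromosome 14, 54722209 to 54781946, minus strand) was much lower. Its WT values were 2.08, 1.23, 1.43 and 1.52 FPKM in GV oocytes and 2.46, 1.76, 2.78 and 1.85 FPKM in eggs, which overlap. The WT log2 fold change of 0.50 (standard error 0.20, limma adjusted p = 0.0406) was not called with a floor of 0.1 FPKM, with 1 FPKM added or without the filter (adjusted p from 0.0506 to 0.0583), nor without any one of WT GV replicates 2, 3 and 4 or WT MII replicates 1 and 3 (adjusted p from 0.0763 to 0.12). Its Psma7 cKO log2 fold change was 0.04 (95% interval -0.41 to 0.48). Slc7a5 (LAT1) averaged 1.07 FPKM at GV and 1.24 FPKM at MII in WT and passed in neither genotype. In WT the summed light chains came to 1.47 ± 0.154 times the Slc3a2 FPKM at GV and 1.1 ± 0.0551 times at MII, without overlap (1.3 to 1.67 against 1.03 to 1.16). In Psma7 cKO this ratio was 1.2 ± 0.18 and 1.00 ± 0.0885 (n = 4 each), and the ranges overlapped.

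Slc7a9 (chromosome 7, 35448796 to 35466036, plus strand) encodes the light chain of the cystine and dibasic amino acid exchanger, whose usual heavy chain rBAT is encoded by Slc3a1. Slc3a1 did not exceed 0.0386 FPKM in any library. Slc7a9 itself was at 12.0, 9.47, 15.1 and 9.51 FPKM in WT GV oocytes and at 0.494, 0.657, 0.488 and 0.695 FPKM in WT eggs. The unfloored group mean was 19.8-fold lower in eggs, the largest ratio among the 13 transcripts described in detail. On the floored scale the log2 fold change was -3.50 (standard error 0.16, limma adjusted p = 1.08e-08), which understates it because all WT eggs were under the floor. The Psma7 cKO GV libraries held 10.7, 9.62, 9.14 and 13.8 FPKM and the Psma7 cKO eggs 0.981, 1.13, 4.41 and 1.92 FPKM. The eggs were again lower (log2 fold change -2.60, standard error 0.42, adjusted p = 0.000404), but they spread over a wide range.

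Slc6a15 (B0AT2, chromosome 10, 103367783 to 103419377, plus strand) takes up branched-chain amino acids and proline. Among the Slc6 rows under the name rule that carry neutral amino acids or monoamines, it was the most abundant. It was at 42.9, 68.1, 52.1 and 49.0 FPKM in WT GV oocytes and 69.1, 60.2, 71.6 and 67.1 FPKM in WT eggs. WT GV replicate 2 lay inside the egg range, and the log2 fold change was 0.36 (standard error 0.13, limma adjusted p = 0.0271). The call was lost with a replicate block (adjusted p = 0.0523) and without any one of WT GV replicates 1, 3 and 4 or WT MII replicates 1 and 3 (adjusted p from 0.052 to 0.0808). In Psma7 cKO the values of 53.6, 52.7, 57.2 and 42.9 FPKM and 62.1, 57.9, 52.8 and 61.9 FPKM gave a log2 fold change of 0.19 that did not pass (adjusted p = 0.134), whereas after median-ratio rescaling it was 0.44 and passed (adjusted p = 0.00746).

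Slc6a4 (chromosome 11, 76998603 to 77032340, plus strand) encodes the serotonin transporter and carries no amino acid, although its name falls under the rule. WT GV oocytes held 15.3, 12.6, 10.3 and 12.3 FPKM and WT eggs 0.985, 1.16, 1.07 and 1.12 FPKM. The mean was 11.6-fold lower in eggs (log2 fold change -3.52, standard error 0.14, limma adjusted p = 4.09e-09). In Psma7 cKO, GV oocytes held 10.3, 12.8, 12.6 and 12.4 FPKM and eggs 1.46, 1.28, 2.02 and 2.00 FPKM, a mean 7.12-fold lower (log2 fold change -2.85, adjusted p = 2e-06).

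The 3 tested Slc38 transcripts all fell. Slc38a7 (chromosome 8, 95835920 to 95853539, minus strand), known as a glutamine carrier of lysosomes, was at 7.14, 7.27, 4.58 and 6.89 FPKM in WT GV oocytes and 1.95, 2.04, 2.35 and 1.62 FPKM in WT eggs (log2 fold change -1.69, standard error 0.18, limma adjusted p = 6.85e-06). In Psma7 cKO it was at 6.08, 5.86, 7.39 and 6.78 FPKM and then at 3.48, 2.09, 1.98 and 1.3 FPKM (log2 fold change -1.64, adjusted p = 0.000374). No egg library reached the lowest GV library in either genotype.

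Slc38a9 (chromosome 13, 112660751 to 112738749, plus strand) encodes a lysosomal arginine sensor that signals to the growth kinase complex mTORC1. It was at 5.90, 5.79, 5.98 and 5.56 FPKM in WT GV oocytes and 1.29, 1.12, 1.44 and 1.39 FPKM in WT eggs, both narrow ranges (log2 fold change -2.15, standard error 0.12, limma adjusted p = 5.32e-08). The Psma7 cKO libraries held 7.93, 6.48, 6.49 and 6.52 FPKM in GV oocytes and 1.74, 1.74, 2.98 and 2.38 FPKM in eggs (log2 fold change -1.67, adjusted p = 4.9e-05). Slc38a8 (chromosome 8, 119479602 to 119501698, minus strand), a further sodium-coupled neutral carrier, went from 10.9, 7.42, 6.78 and 7.55 FPKM to 0.827, 0.746, 0.714 and 0.646 FPKM in WT. The mean was 11.1-fold lower in WT eggs and 10.2-fold lower in Psma7 cKO eggs, where GV values of 5.54, 9.54, 7.99 and 10.8 FPKM gave way to 1.07, 0.748, 0.836 and 0.674 FPKM (limma log2 fold change -3.01 in each genotype, adjusted p = 2.65e-08 and 2e-06).

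Slc43a3 (chromosome 2, 84936579 to 84958509, plus strand), known as a carrier of purine nucleobases, rose in both genotypes. WT GV oocytes held 25.6, 27.2, 25.2 and 23.7 FPKM and WT eggs 38.3, 36.8, 40.9 and 36 FPKM (log2 fold change 0.58, standard error 0.08, limma adjusted p = 6.03e-05). The Psma7 cKO values were 24.9, 19.0, 23.4 and 22.4 FPKM and then 35.8, 33.8, 29.8 and 34.3 FPKM (log2 fold change 0.58, adjusted p = 0.000944). There was no overlap between the stages.

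The cationic carriers passed in neither genotype with deposited FPKM. Slc7a2 (CAT2, which imports arginine and lysine, chromosome 8, 40862396 to 40922308, plus strand) was at 17.3, 14.6, 12.5 and 17.1 FPKM in WT GV oocytes and 17.2, 15.3, 15.5 and 16.2 FPKM in WT eggs, and the stages overlapped fully. Its log2 fold change was 0.07 (95% interval -0.19 to 0.33) in WT and -0.15 (95% interval -0.42 to 0.13) in Psma7 cKO. After rescaling by the median ratio the WT value was 0.29 and passed (limma adjusted p = 0.0274), since that scaling raises all egg values relative to GV values. Slc7a1 (CAT1) averaged between 1.18 and 1.3 FPKM in the 4 groups and passed in neither genotype, but after that rescaling it was called higher in Psma7 cKO eggs than in Psma7 cKO GV oocytes.

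**Figure D3:**
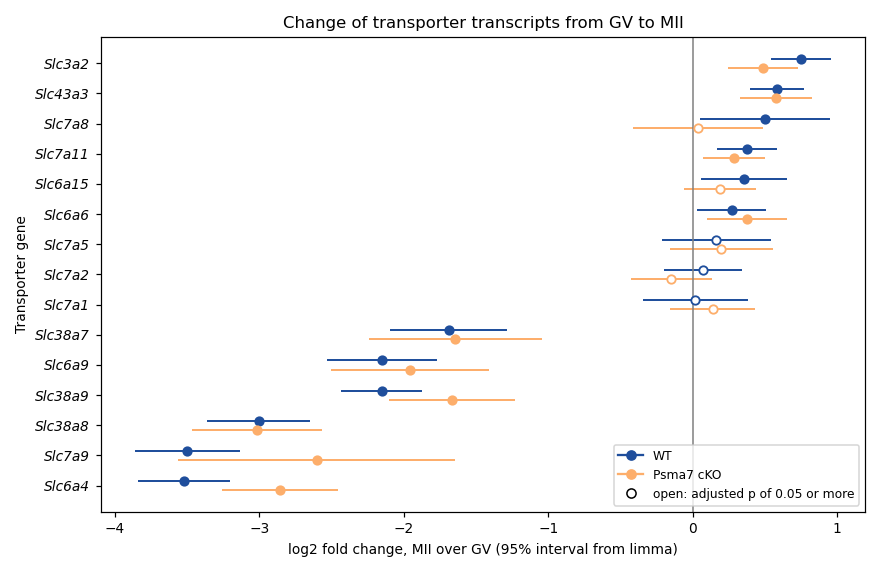
Log2 fold change from GV to MII with its 95% interval from limma for the 15 transporter transcripts tested, in WT (blue) and Psma7 cKO (orange), with filled points for an adjusted p under 0.05. The decreases that passed run from -1.64 to -3.52 and the increases that passed from 0.27 to 0.75.

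In Psma7 cKO, 4 of the 15 tested transporters rose from GV to MII and 6 fell. Over all 10748 rows tested the shares were 23% and 51%, or 2472 rows that rose and 5482 that fell, and after median-ratio rescaling 3313 rose and 4641 fell. The 4 were Slc43a3, Slc3a2, Slc6a6 and Slc7a11, and the 6 were those that also fell in WT. The median log2 fold change was 0.03 over the transporters and -0.42 over all rows, and 0.29 and -0.18 after rescaling. Slc38a8 passed the filter only through the GV libraries.

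The genotypes were compared at each stage to ask whether loss of Psma7 in the growing oocyte alters these transcripts. In GV oocytes no transporter of the 16 tested passed the adjusted threshold in either direction, compared with 0.0994% of all rows for higher and 0.0181% for lower in Psma7 cKO (11 and 2 rows, or 5 and 2 after median-ratio rescaling). At an unadjusted p under 0.05, 0 were higher and 1 was lower, compared with 843 and 339 of all 11062 rows tested. By the rule of a more than 3-fold difference between floored group means, 0 of 51 rows were higher and 0 lower, compared with 0.014% and 0.0105% of all rows. The 31 rows under 1 FPKM in every library could not differ by this rule, since all their values were set to 1. The median log2 fold change was 0.00 over the transporters and 0.04 over all rows.

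Among the 13 transcripts described in detail, some had ranges that did not overlap between genotypes in GV oocytes. Part of these 13 were picked for large genotype differences. The share of all rows without overlap was not counted, here or in eggs, and the exact p values were not adjusted. Slc6a6 had the lowest log2 fold change, -0.29 (95% interval -0.55 to -0.02, limma adjusted p = 0.430), and every Psma7 cKO library (4.65 to 5.77 FPKM) lay below every WT library (6.05 to 6.83 FPKM). The exact permutation test gave p = 0.0286, the smallest value that 4 libraries against 4 allow. Slc3a2 (log2 fold change 0.23, adjusted p = 0.505) and Slc38a9 (0.23, adjusted p = 0.517) did not overlap either, with all Psma7 cKO libraries above WT and the same exact p. Slc7a2 (0.23, adjusted p = 0.547) and Slc6a9 (0.20, 95% interval -0.31 to 0.70, adjusted p = 0.822) overlapped between genotypes. For Slc6a9 a difference of up to 0.70 on the log2 scale therefore could not be told from none.

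In eggs no transporter of the 14 tested passed either, compared with 6.53% of all rows for higher and 1.49% for lower in Psma7 cKO (620 and 141 rows, or 510 and 207 after median-ratio rescaling). At an unadjusted p under 0.05, 3 were higher (Slc38a9, Slc6a4 and Slc6a9) and 3 lower (Slc7a11, Slc6a15 and Slc43a3). Of all 9492 rows tested, 1952 were higher and 835 lower at that level. The 3-fold rule gave 0 of 51 in each direction, compared with 0.584% and 0.00699% of all rows. Again the 31 rows under 1 FPKM in every library could not differ by this rule. The median log2 fold change was 0.01 over the transporters and 0.07 over all rows, and Slc7a9 passed the filter only through the Psma7 cKO libraries.

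Slc38a9 and Slc6a4 came nearest to the threshold. Slc38a9 was at 1.74, 1.74, 2.98 and 2.38 FPKM in Psma7 cKO eggs, and each of these exceeded the highest WT egg (1.44 FPKM). Its log2 fold change was 0.72 (95% interval 0.27 to 1.17, limma adjusted p = 0.0559, exact permutation p = 0.0286). Slc6a4 was likewise higher in all 4 Psma7 cKO eggs (1.28 to 2.02 FPKM) than in any WT egg (0.985 to 1.16 FPKM), with a log2 fold change of 0.61 (95% interval 0.21 to 1.01, adjusted p = 0.0628, exact permutation p = 0.0286). Both passed when all 16 libraries entered 1 fit (adjusted p = 0.00628 and 0.0158) and without cKO MII replicate 2 (adjusted p = 0.0387 and 0.0302). Without cKO MII replicate 3 the log2 fold changes were 0.57 and 0.51.

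Among the transporters tested, Slc7a9 had the largest difference between egg groups. Its mean FPKM was 2.11 ± 1.59 in Psma7 cKO and 0.583 ± 0.108 in WT eggs, 3.62-fold apart, with no overlap. On the floored scale the log2 fold change was 0.82 (95% interval -0.11 to 1.74, limma adjusted p = 0.219), and the exact permutation test gave p = 0.1429, because all 4 WT eggs and replicate 1 of Psma7 cKO are equal at the floor. With a floor of 0.1 FPKM it was 1.60 and still did not pass. Replicate 3, at 4.41 FPKM, carried much of this mean, and without it Slc7a9 fell under the filter and was not tested. That library also had 10013 rows at 1 FPKM or more, and Psma7 cKO replicates 1, 2 and 4 had 9666, 9387 and 9526. WT eggs had 9044 to 9366, below every Psma7 cKO egg library, and the part of this in the result was not tested.

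Slc6a9 was 1.32-fold higher in Psma7 cKO eggs by group means, with 4.29 to 6.48 FPKM against 3.51 to 4.70 FPKM (log2 fold change 0.39, 95% interval 0.01 to 0.77, limma adjusted p = 0.155). The ranges overlapped. The other 3 past an unadjusted p of 0.05, all of which rose in WT maturation, lay slightly lower in Psma7 cKO eggs. Slc7a11 (log2 fold change -0.18, adjusted p = 0.139) and Slc43a3 (-0.19, adjusted p = 0.151) had no overlap with WT eggs (exact permutation p = 0.0286 each), whereas Slc6a15 did (-0.19, adjusted p = 0.151). Slc6a6 (-0.18, adjusted p = 0.276) and Slc7a8 (-0.28, adjusted p = 0.433) overlapped as well. Slc3a2 and Slc7a2 were near 0, with 95% intervals of -0.21 to 0.14 and -0.23 to 0.26. These egg libraries and the WT egg libraries also enter the maturation comparisons above, so the values are not independent of them.

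**Figure D4:**
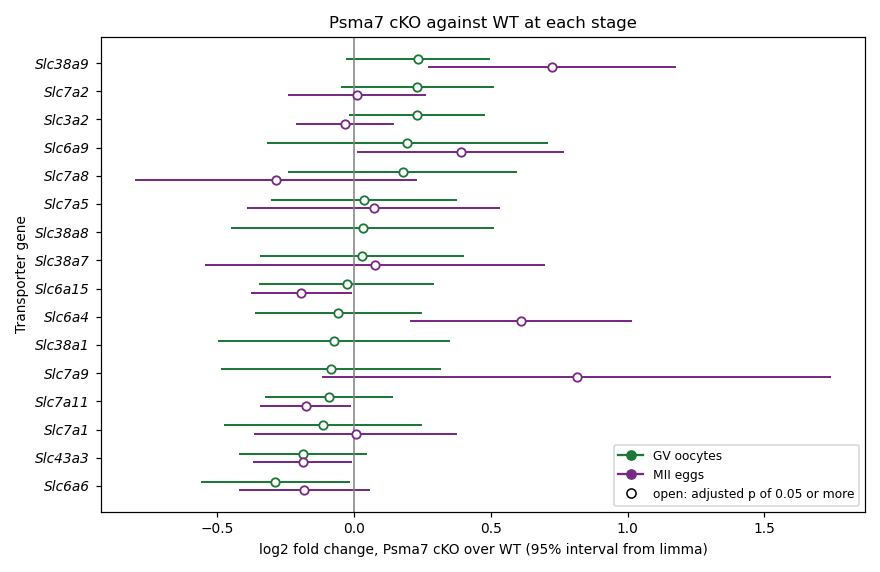
Log2 fold change of Psma7 cKO over WT with its 95% interval from limma, for 16 transporter transcripts tested in GV oocytes (green) and 14 in MII eggs (purple). All points are open because none had an adjusted p under 0.05, and Slc7a9, Slc38a9 and Slc6a4 lie farthest to the right in eggs at 0.82, 0.72 and 0.61.

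The genotype by stage interaction asks whether maturation changes a transcript differently in Psma7 cKO. None of the 15 transporters tested passed, compared with 1.07% of all rows for a higher and 0.188% for a lower value in Psma7 cKO. At an unadjusted p under 0.05, 2 were higher and 0 lower, compared with 1347 and 534 of all 10615 rows tested. The maturation change of Slc6a4 was 0.67 higher in Psma7 cKO on the log2 scale (standard error 0.22, limma adjusted p = 0.134), and without cKO MII replicate 2 this was 0.79 and passed (adjusted p = 0.0377). The difference was 0.49 for Slc38a9 (adjusted p = 0.268), 0.90 for Slc7a9 (95% interval -0.11 to 1.91, adjusted p = 0.349), -0.46 for Slc7a8 (adjusted p = 0.448) and -0.26 for Slc3a2 (adjusted p = 0.319).

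Genes that work beside these transporters were followed as lists. In WT maturation their counts stand beside 26.1% of all rows tested that rose and 52.4% that fell. In the list of 23 cell volume regulators (ion cotransporters, volume-regulated anion channels, their kinases), 14 were tested in WT maturation, of which 5 rose and 2 fell, and the median log2 fold change was 0.29. The 2 that fell were Lrrc8e, a subunit of the volume-regulated anion channel (-2.12, limma adjusted p = 3.43e-05), and the kinase gene Sgk1 (-1.29, limma adjusted p = 8.65e-05). None of the 15 tested in GV oocytes passed between genotypes, compared with 0.0994% of all rows for higher and 0.0181% for lower in Psma7 cKO.

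Of 30 listed genes of amino acid sensing to mTORC1, 18 were tested in eggs, with 0 higher and 1 lower in Psma7 cKO (6.53% and 1.49% of all rows). This was the more abundant of the 2 entries of Mtor, the kinase itself, at 3.08 ± 0.187 FPKM in WT and 2.24 ± 0.166 in Psma7 cKO eggs (n = 4 each), with a log2 fold change of -0.46 (limma adjusted p = 0.0477). The Mtor call was lost without either one of WT MII replicates 1 and 3, where 0 of all rows tested were called lower. The other Mtor entry was not tested in eggs, where its mean was 0.194 FPKM in Psma7 cKO and 0 in WT. In WT maturation 7 of 20 tested from this list rose and 9 fell (26.1% and 52.4% of all rows). The median log2 fold change was -0.09. Lamtor4 (-3.83, adjusted p = 1.16e-08) and Lamtor5 (-2.53, adjusted p = 2.34e-07), which encode parts of the lysosomal anchor of the complex, and Nprl2 (-2.25, adjusted p = 5.02e-08), which encodes an inhibitor of the pathway, changed the most.

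A list of 19 other amino acid carriers outside the 7 families' plain names had 11 tested rows. None was called between genotypes at either stage. Of all rows, 0.0994% were called higher and 0.0181% lower in Psma7 cKO GV oocytes, and 6.53% and 1.49% in Psma7 cKO eggs. In WT maturation 1 of the 11 rose and 6 fell (median log2 fold change -0.68), compared with 26.1% and 52.4% of all rows. The largest changes were those of Slc15a4, a lysosomal carrier of histidine and peptides (-2.93, limma adjusted p = 3.33e-08), and of 2 Slc6 genes. These were Slc6a20a (-2.14, adjusted p = 1.06e-07) and Slc6a20b (-2.01, adjusted p = 5.34e-06), which the name rule leaves out because a letter follows the number. Slc6a20a averaged 61.8 FPKM in WT GV oocytes and 14.1 FPKM in WT eggs. Of the 10 transporters known as targets of the stress factor ATF4, 5 were tested, and 0 were called between genotypes at either stage. At the shares of all rows just given, 0 calls among 5 rows do not set these transporters apart from all rows. Slc3a2 and Slc7a11 rose and Slc6a9 fell in both maturation comparisons.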

How the data were processed

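RNA was sequenced from 16 libraries, 4 per genotype and stage. The authors primed cDNA with oligo-dT, followed the Smart-seq2 protocol and deposited FPKM from Cufflinks 2.2.1. Priming on the poly(A) tail means that a value can depend on tail length as well as on the number of transcripts. The submitters' processing notes also name TopHat2 2.1.1 and mm10. The annotation release is not given in the sources used here. Values under 1 FPKM were set to 1, as in the authors' methods, and tested with limma 3.58.1 in R 4.3.3 (intensity trend, mean of at least 1 FPKM, Benjamini-Hochberg adjustment over all rows tested). Each comparison used its own libraries, and the interaction all 16. Exact permutation tests were two-sided over 70 arrangements of 4 against 4. Named transcripts were those called in any comparison, Slc6a9, the 10 highest by mean, and the 5 largest differences in each genotype comparison and the interaction. Members and lists were chosen with earlier results of these data known. Depth was estimated from the steps of the lowest FPKM. In simulated data, limma recovered 197 and 194 of 200 transcripts changed 4-fold between genotypes in GV oocytes and eggs, with 9 and 8 false calls, and 198 and 190 in WT and Psma7 cKO maturation. The changed transcripts were drawn from rows with a mean of at least 5 FPKM. Recovery of lower rows or of smaller differences, such as those between genotypes here, was not measured. Replicate numbers were not treated as pairs, since deviations of libraries with the same number correlated at -0.496 to 0.285. Positions are GENCODE M21. Alternatives were another floor, 1 FPKM added, median-ratio rescaling, no or a stricter filter, no trend, a replicate block, 1 fit of 16 libraries, names summed, 2-fold, and each library left out. Python 3.11.15, pandas 2.3.3 and scipy 1.17.1 did the rest. A result of the cell volume list in eggs is not reported here.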

Additional observations from a re-analysis of the deposited data

Results flagged for a closer look

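In 5 of the 52 groups of 4 libraries examined (13 transcripts in 4 groups), 1 library stood apart from the other 3 by Dixon's test at the 95% level. Chance gives about 1 in 20 groups. Slc3a2 was at 23.8 FPKM in cKO GV replicate 3, with the others at 19.0 to 19.5 FPKM. Slc38a9 was at 7.93 FPKM in cKO GV replicate 1 (others 6.48 to 6.52). Slc38a7 was at 4.58 FPKM in WT GV replicate 3 (others 6.89 to 7.27). Slc7a8 was at 2.62 FPKM in cKO MII replicate 1 (others 1.52 to 1.65). Slc7a11 was at 30.2 FPKM in WT MII replicate 1 (others 27.2 to 27.5). Without cKO GV replicate 3 the genotype difference of Slc3a2 in GV oocytes was 0.15 on the log2 scale, and without cKO MII replicate 1 that of Slc7a8 in eggs was -0.47.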

How the results depend on the processing

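No called value reversed its direction, and the 6 transporters that fell in maturation passed in both genotypes in every fit that left out 1 library. Of these, Slc7a9 and Slc38a8 in WT and Slc38a8 in Psma7 cKO passed the filter only through the GV libraries. They had to differ, so their calls in these fits are no support. With a mean of at least 5 FPKM, 3 fell in WT and 3 in Psma7 cKO, because the other 3 were no longer tested. The count that rose in WT was 3 to 5 when 1 library was left out (3 without WT GV replicate 4 or WT MII replicate 3), and 4 with a replicate block. In Psma7 cKO it was 3 to 4, and 2 with a replicate block. Median-ratio rescaling raised it to 7 in WT (Slc7a2 added) and 6 in Psma7 cKO (Slc6a15 and Slc7a1 added). In eggs the count higher in Psma7 cKO was 2 in 1 fit of 16 libraries and 0 to 2 when 1 library was left out. For the interaction it was 0 to 1. A floor of 0.1 FPKM or a 2-fold rule put 1 transporter (Slc7a9) over the fold limit in eggs.

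Counts over all rows varied more. In eggs, 620 higher and 141 lower rows became 354 higher without a filter, 86 lower without a trend, 101 and 7 with a replicate block, and 1328 and 254 in 1 fit of 16 libraries. Leaving out 1 library gave 3 to 1024 higher and 0 to 136 lower. In GV oocytes, 11 higher and 2 lower rows became 5 higher after rescaling, 3 without a filter, 4 with a replicate block, 5 and 1 with the stricter filter, 18 and 4 without a trend, and 124 and 33 in 1 fit. Leaving out 1 library gave 3 to 16 and 2 to 4. The interaction's 114 higher and 20 lower rows became 75 and 8 with 1 FPKM added, 53 and 7 with the block, 192 higher with the stricter filter and 32 lower without one, and 37 to 605 and 4 to 46 without 1 library. Rows that fell in maturation went from 5486 to 3123 in WT and from 5482 to 3136 in Psma7 cKO with the stricter filter. The cause of these differences was not tested. Depth limits the low rows, and the main fits tested none with a mean under 1 FPKM.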
